A study of Blastobotrys raffinosifermentans with 8 samples.

Results

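The later course of the wild-type yeast *B. raffinosifermentans* LS3 on glucose alone was followed on 3 of the 8 arrays of the series, those of the cultures harvested 30 min, 2 h and 5 h after the shift to fresh medium with 1% glucose. They were chosen by their sample titles. The cells had grown overnight on glucose with nitrate as the nitrogen source, and all groups had this kind of pre-culture, the nitrate and the wild-type strain in common. The groups compared here were the glucose cultures at 5 h, at 2 h and at 30 min, with a glucose culture at 15 min as a further time, and the cultures that also received 0.5% protocatechuic acid, at the same 4 times. Each medium and time had 1 array, and whether the cells of 1 medium came from a single flask is not stated in the sources used here.

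Glucose is the preferred carbon source of many yeasts, and a transfer to fresh medium is known from *Saccharomyces cerevisiae* to be followed within minutes to hours by broad changes in transcription, which are commonly linked to growth, nutrient uptake and stress. In fungi the genes for the breakdown of tannins and aromatic acids, such as tannases, decarboxylases, hydroxylases and ring-cleaving dioxygenases, are commonly transcribed when their substrates are present. The files do not pair most identifiers with names, so genes outside the study's own annotation could not be grouped by function. They were grouped by their change, by their place along the chromosomes and by the form of their identifiers.

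A value is the log2 intensity of the study's own table, and the value of a gene is the middle value of its spots. The array carried 6160 yeast identifiers on 61537 spots, and for 6025 of them a glucose array from 30 min to 5 h had a spot well above background. These 6025 were examined for a difference of 1 or more on the log2 scale in either direction, a limit that means a doubling of intensity or the reverse. On the glucose arrays 58.9% of the spots were well above background at 30 min, 64.7% at 2 h and 70.2% at 5 h, and no spot was saturated. With 1 array per time no error between cultures can be had, so the SD given with a gene is the spread over its spots on the same RNA. In RNA of a whole culture, fewer cells with a transcript and less transcript per cell cannot be told apart.

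Between 30 min and 2 h on glucose, 178 genes (2.95% of those tested) were higher at 2 h by at least 1 and 183 genes (3.04%) were lower, together 361 or 5.99%. A difference of at least 2 was found for 21 genes that were higher and 31 that were lower. Both arrays had 50% or more of the spots well above background for 146 of the 178 higher genes and for 160 of the 183 lower genes. For 5 of the higher and 2 of the lower genes, no spot was well above background on the dimmer array, so that only a lower bound of their change can be known. Most genes moved little, since 77.6% of the 6025 genes differed by less than 0.5 in size.

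The largest rise in this step was that of ARAD1B05214g on chromosome Arad1B, among 3547 genes with at least 3 spots and 50% or more of them well above background on both arrays. On glucose its 11 spots had a median of 7.78 at 15 min and 7.65 at 30 min, then of 11.24 at 2 h and 10.07 at 5 h. The gene was thus lower on both early arrays than on both late ones. The log2 difference was 3.58 ± 0.62 (SD, n = 11 spots), a 12-fold higher intensity at 2 h, and 11 of 11 spots were higher at 2 h. The glucose arrays chose this gene, so its values there are a description. The arrays with protocatechuic acid did not, and there its level was 7.72, 7.04, 10.88 and 9.95 at the 4 times, with a difference of 3.84 ± 1.17 over the same 11 spots.

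Among the same 3547 genes the largest fall was that of ARAD1D50292g, the identifier that stands 23 places from the end of those on chromosome Arad1D. On glucose its median over 11 spots was 4.99 at 15 min and 9.44 at 30 min, then 5.97 at 2 h and 4.95 at 5 h. At 30 min 11 of 11 spots were well above background, and at 15 min and at 5 h 3 of 11 were. The gene was therefore high on 1 of the 4 glucose arrays, with a log2 difference of -3.47 ± 0.31 between 2 h and 30 min, an 11.1-fold lower intensity at 2 h. With protocatechuic acid the level at 30 min was 9.17, close to that on glucose, and the level at 2 h was still 7.57, so that the same step came to -1.60 ± 0.27. The choice of this gene used the glucose arrays, so the smaller step in the other medium is a description and was not tested.

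Between 2 h and 5 h, 213 genes (3.54%) were higher at 5 h by at least 1 and 153 genes (2.54%) were lower, together 366 or 6.07%. The rises of this step were the larger ones, with 63 genes higher and 19 lower by at least 2. Among the higher genes the median difference was 1.56, and among the lower genes it was -1.32. Well-measured genes made up most of both groups, since 185 of the 213 and 140 of the 153 had 50% or more of their spots well above background on both arrays. Over the whole course, 5 h against 30 min, 325 genes (5.39%) were higher and 326 (5.41%) were lower, together 651 or 10.8%.

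ARAD1C26070g on chromosome Arad1C had the largest rise between 2 h and 5 h, among 3976 genes that met the same limits in this step. On glucose its median over 10 spots was 9.24 at 15 min and 8.36 at 30 min, then 6.07 at 2 h and 11.36 at 5 h. At 2 h 8 of 10 spots were well above background. The gene was 39.2-fold higher at 5 h than at 2 h, a log2 difference of 5.29 ± 0.45 (SD, n = 10 spots), and its spots ranged from 4.70 to 6.17. The low point at 2 h was less deep with protocatechuic acid. There the gene had 11.62, 8.65, 8.08 and 10.90 at the 4 times, and the step from 2 h to 5 h was 2.82 ± 0.25. This gene was chosen by its step on glucose, so the difference between the media is a description and was not tested.

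Among the same 3976 genes ARAD1D43846g had the largest fall between 2 h and 5 h, and its signal stood out on the 2 h array. The median over its 10 spots on glucose was 5.37 at 15 min and 5.14 at 30 min, then 8.72 at 2 h and 5.72 at 5 h. The log2 difference between 5 h and 2 h was -3.00 ± 1.72, and the SD is wide because the spots did not move together. The lowest spot had -3.67 and the highest 0.72, and 8 of 10 spots were lower at 5 h. With protocatechuic acid the gene also had its highest value at 2 h, with 5.71, 5.18, 7.08 and 5.78 at the 4 times. The plot of these 4 genes by time sets the media side by side.

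**Figure D1:**
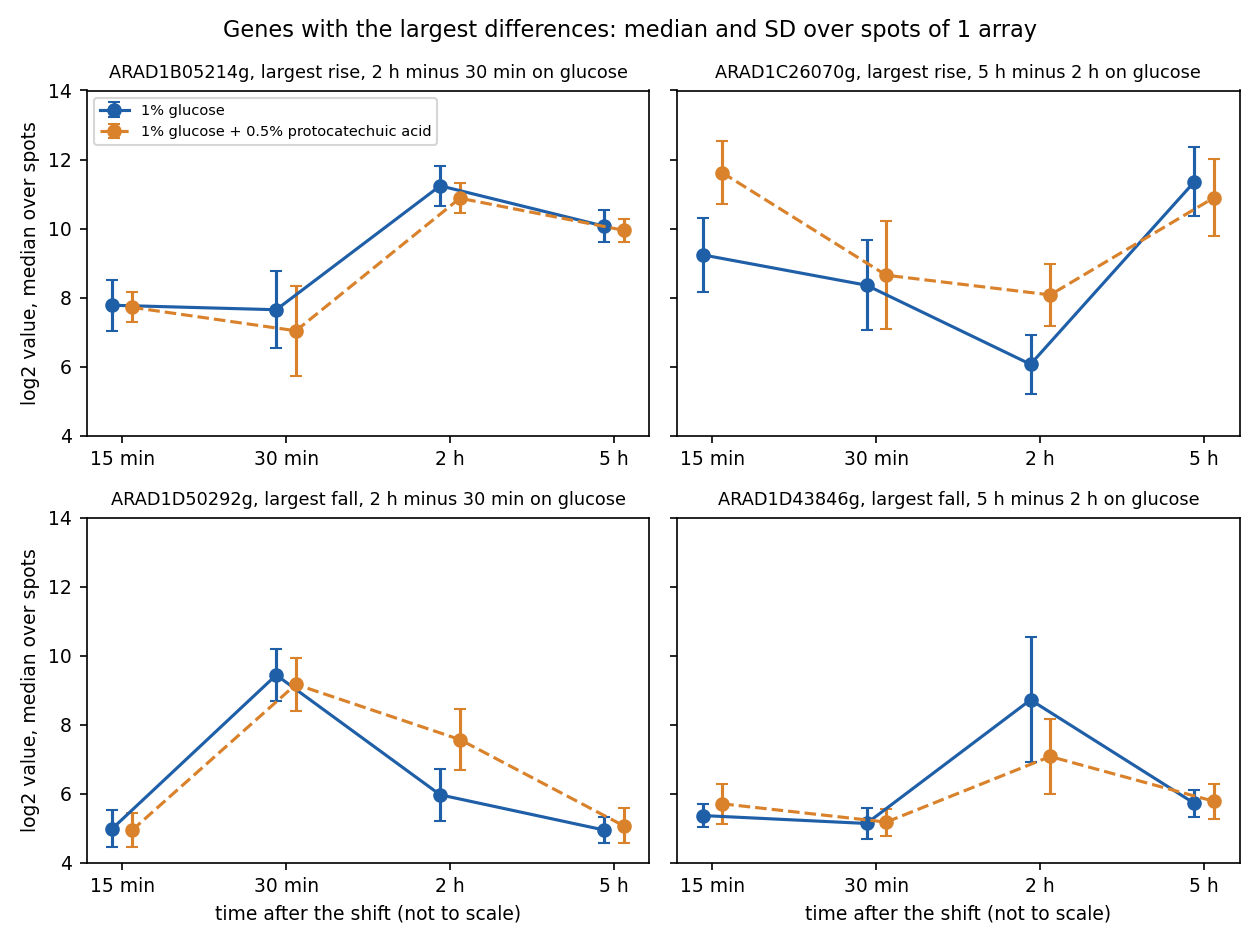
Log2 value (vertical axis) of the 4 genes with the largest rise or fall in a step on glucose, by time after the shift (horizontal axis, not to scale), on 1% glucose (blue, solid) and with 0.5% protocatechuic acid (orange, dashed). Points are medians and bars the SD over 10 or 11 spots of 1 array. ARAD1D50292g peaks at 30 min in both media, with 9.44 on glucose and 9.17 with protocatechuic acid.

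The precision within an array was read from 5225 probes that were placed on 2 spots. For 2 h minus 30 min the log2 differences of the paired spots had an SD of 0.36 between them, and for 5 h minus 2 h an SD of 0.30. Where the first of the paired spots had moved by at least 1, the other had moved the same way in 398 of 403 cases in the first step and in 336 of 338 in the second. It had also passed 1 in 300 and in 272 of these cases. A single spot near the limit can thus fall on either side of it, while its direction rarely turned.

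The counts rest on quantile normalization, which gives all arrays the same distribution, and the spike-in controls did not keep their level under it. The 7 spike-in probes with 50% or more of their 35 spots well above background on every array were lower at 2 h than at 30 min on glucose by a median of -0.24 (from -0.35 to -0.10). Between 2 h and 5 h their median difference was -0.47, from -0.53 to 0.05. Scaled to these probes, the median over all genes moved to 0.28 for 2 h minus 30 min and to 0.48 for 5 h minus 2 h. The counts then became 386 genes higher and 109 lower in the first step and 565 higher and 57 lower in the second, so that the share of higher genes among those past the limit moved to 78.0% and 90.8%, against 49.3% and 58.2% under quantile normalization. All changes given here are therefore relative to the bulk of the genes on the array. Probe position moved as well. In 1599 genes with all spots well above background on the 3 glucose arrays, the last probe along the gene exceeded the first by a median of 0.50 at 30 min, 0.76 at 2 h and 0.63 at 5 h, and its part in the counts was not tested.

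The genes past the limit were then read at all times, also on arrays that had not chosen them. Those that were higher at 5 h than at 2 h had also been high at the first time. On glucose the 213 genes had a median level of 7.81 at 15 min and 6.37 at 30 min, then of 6.22 at 2 h and 8.03 at 5 h. Their median difference between 15 min and 30 min was 1.09, and 114 of them (53.5%) were higher at 15 min by at least 1, against 6.61% of all genes tested. The corresponding values with protocatechuic acid were a median of 0.80 and 44.1% of the 213 genes, against 10.5% of all genes.

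The 153 genes that were lower at 5 h than at 2 h had the opposite course, with median levels of 6.87, 8.00, 7.90 and 6.43 on glucose. At 15 min 65 of them (42.5%) were lower than at 30 min by at least 1, against 5.68% of all genes, and with protocatechuic acid 41.2% were, against 8.73%. In both groups the medians at 15 min and at 5 h lay nearer to each other than to those between them. The course of the genes that had changed between 30 min and 2 h was of another kind. The 178 higher genes stayed high, with medians of 6.50, 6.25, 7.78 and 7.48 at the 4 times, and 37.6% of them were higher at 5 h than at 15 min by at least 1, against 4.60% of all genes. The 183 lower genes had a peak at 30 min on glucose, with 6.73, 7.93, 6.20 and 6.17. The 2 glucose arrays of a step chose its genes, so the levels on them are a description. On the arrays with protocatechuic acid, which did not choose them, the 183 genes had 6.39, 7.96, 6.67 and 5.95.

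**Figure D2:**
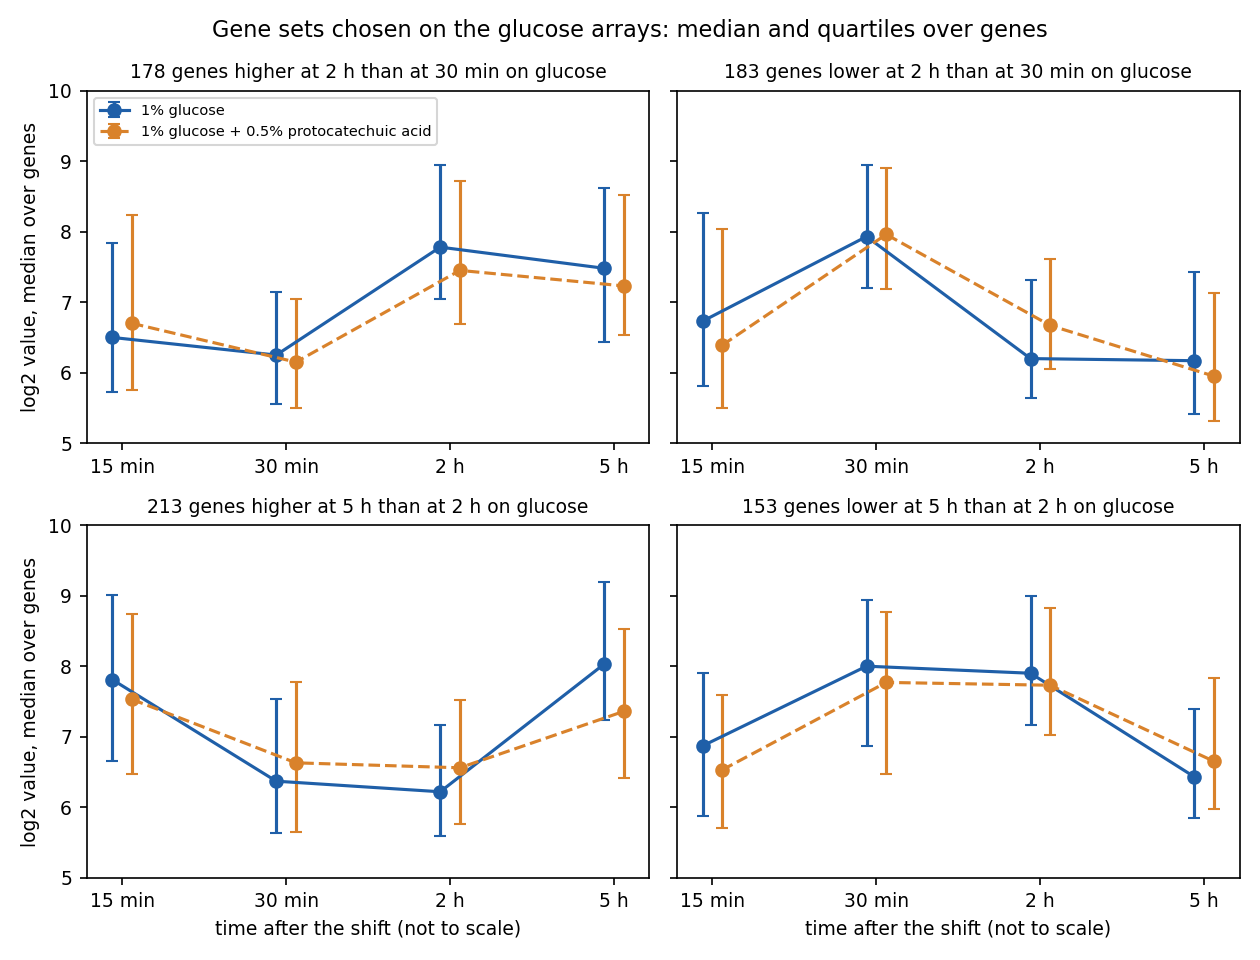
Median log2 value over genes (vertical axis, bars are the quartiles over genes) by time after the shift (horizontal axis, not to scale) for the 4 groups of genes past a log2 difference of 1 in a step on glucose, on 1% glucose (blue, solid) and with 0.5% protocatechuic acid (orange, dashed). The 213 genes higher at 5 h than at 2 h are also high at 15 min, with medians of 7.81 on glucose and 7.53 with protocatechuic acid.

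The same steps in the cultures with protocatechuic acid show how far the changes recur in a second set of arrays. Between 30 min and 2 h, 175 of the 178 higher genes (98.3%) were also higher with protocatechuic acid, where 47.2% of all genes were, and 178 of the 183 lower genes (97.3%) were also lower, where 52.5% of all genes were. Past the limit in both media were 112 of the higher genes, which is 62.9% of those on glucose and 42.1% of the 266 with protocatechuic acid (4.41% of the genes tested). Of the lower genes 109 were, which is 59.6% of those on glucose and 50.9% of the 214 with protocatechuic acid (3.55%). The 178 genes had a median difference of 1.31 on glucose and 1.26 with protocatechuic acid.

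In the step from 2 h to 5 h the sizes lay further apart. Of the 213 higher genes 194 (91.1%) were also higher with protocatechuic acid, where 53.0% of all genes were, but their median difference was 1.56 on glucose and 0.77 with protocatechuic acid. Past the limit in both media were 77 genes, 36.2% of those on glucose and 53.5% of the 144 with protocatechuic acid (2.39%). The 153 lower genes had medians of -1.32 on glucose and -0.93 with protocatechuic acid, and 71 were past the limit in both, 46.4% of those on glucose and 33.5% of the 212 with protocatechuic acid (3.52%). Over the whole course from 30 min to 5 h, 168 higher genes were past the limit in both media, 51.7% of those on glucose and 58.9% of the 285 with protocatechuic acid (4.73%). Among the lower genes 195 were, 59.8% of those on glucose and 51.2% of the 381 with protocatechuic acid (6.32%). The genes were chosen on the glucose arrays, so the sizes are given as a description. Over all 6025 genes the steps correlated with r = 0.73 for 2 h minus 30 min and r = 0.51 for 5 h minus 2 h. Genes are not independent replicates, and no test was made on these values.

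**Figure D3:**
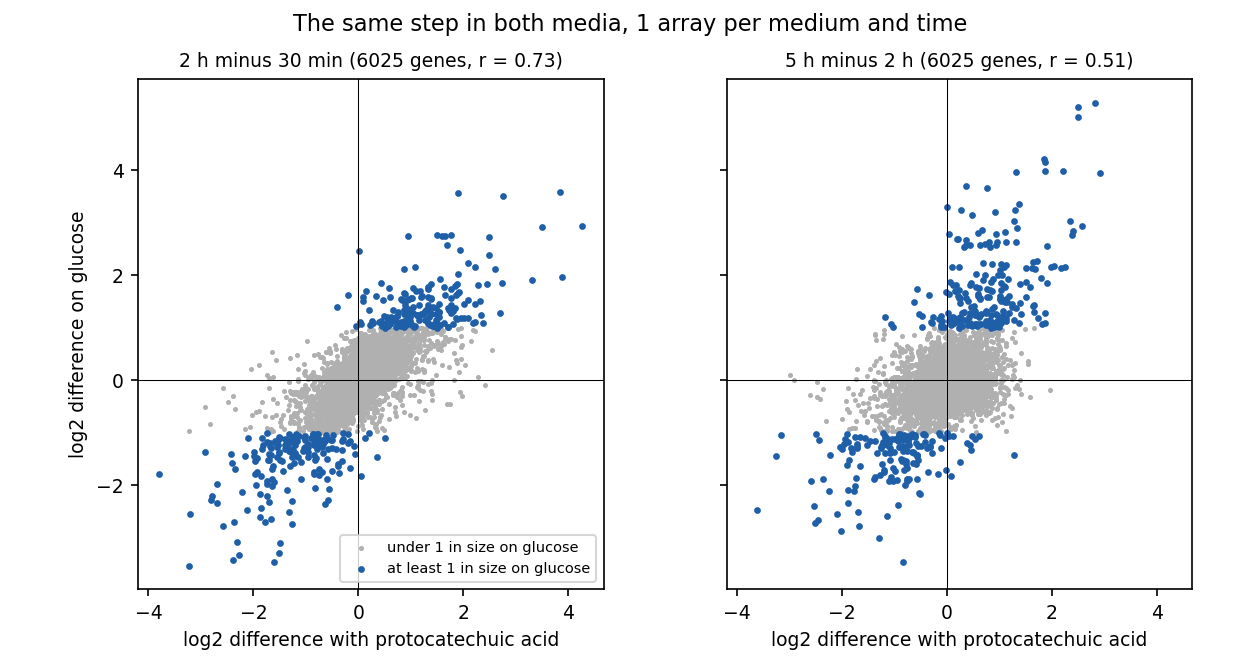
Log2 difference of each of 6025 genes on glucose (vertical axis) against that of the same step with protocatechuic acid (horizontal axis), for 2 h minus 30 min on the left and 5 h minus 2 h on the right. Genes past 1 in size on glucose are blue. In the right panel the step on glucose exceeds that with protocatechuic acid by at least 2 for 42 genes and falls short by at least 2 for 4. There r is 0.51, against 0.73 in the left panel.

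The difference between the media was then taken for each step. Between 2 h and 5 h the step on glucose exceeded that with protocatechuic acid by at least 1 for 220 genes (3.65%) and fell short of it by at least 1 for 156 genes (2.59%). By at least 2 it was larger for 42 genes and smaller for 4. The 42 genes had median levels on glucose of 8.28 at 15 min and 6.88 at 30 min, then of 5.89 at 2 h and 8.26 at 5 h, and of 8.10, 7.54, 7.87 and 6.81 with protocatechuic acid. The 42 genes were chosen by this difference on the same arrays at 2 h and 5 h, so their levels there are a description. In the step from 30 min to 2 h, 86 genes (1.43%) were larger and 112 (1.86%) smaller on glucose, 10 and 6 of them by at least 2. Over the whole course 223 genes (3.7%) were larger and 155 (2.57%) smaller on glucose, 48 and 7 of them by at least 2. The spike-in probes moved differently in the 2 media between 2 h and 5 h, with a median of -0.47 on glucose and 0.26 with protocatechuic acid. The share of spots well above background was 70.2% at 5 h and 64.7% at 2 h on glucose, and 59.0% and 68.7% with protocatechuic acid, and its part in these counts was not tested.

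The part of each change that the media share was tested with limma over the 6 arrays from 30 min to 5 h, with the medium as a block and 2 residual degrees of freedom. With 1 array per medium and time, the residual of this fit is the difference between the media in their course. Any effect of protocatechuic acid on a step is therefore counted as error, and a large p can come with large steps in both media. For 2 h minus 30 min, 1 gene passed the Bonferroni adjustment at 0.05, ARAD1B05214g, with a log2 difference of 3.71 (standard error 0.16, adjusted p = 0.0265 from limma). The arrays that had chosen this gene are part of the fit, so the p is not independent of its choice. The call was lost with a normexp offset of 50 (adjusted p = 0.0816 from limma) and with the mean over spots (adjusted p = 0.0776 from limma), and over all alternatives the adjusted p of this gene in limma lay between 0.00241 and 1. After Benjamini-Hochberg adjustment, 136 genes were higher and 104 lower at 2 h. For 5 h minus 2 h, 0 genes passed the Bonferroni adjustment in limma, with 0.0895 as the smallest adjusted p. In that step 15 genes passed after Benjamini-Hochberg adjustment, 8 higher and 7 lower, and 1019 had an unadjusted p under 0.05. When the variance was allowed to follow the mean and was estimated robustly, 3 genes passed Bonferroni for 5 h minus 2 h, and with all 8 arrays 1 gene did. The outcome rests on single arrays. Without any one of the 30 min or 2 h arrays 0 genes passed Bonferroni for 2 h minus 30 min, and without either 5 h array 10 did. Between 5 h and 2 h, 5 genes passed without the 5 h array with protocatechuic acid. Between 5 h and 30 min, 0 passed without any one of the 30 min or 2 h arrays, 18 without the glucose array at 5 h and 17 without the other 5 h array. With all 6 arrays, 3 genes of the whole course from 30 min to 5 h were higher and 7 lower after Bonferroni, and 292 and 332 after Benjamini-Hochberg adjustment. ARAD1C26070g had a shared difference of 4.06 between 5 h and 2 h (standard error 0.59, Bonferroni-adjusted p = 1 from limma), and ARAD1D50292g one of -2.54 between 2 h and 30 min (standard error 0.47, Bonferroni-adjusted p = 1 from limma).

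Genes past the limit often lay next to each other. Ordered by the numbers in their identifiers along the 4 chromosomes, 23.7% of the higher and 23.5% of the lower genes of the first step had a direct neighbour past the limit in the same direction, as had 30.2% and 26.8% in the second step. Of all 5964 tested genes of these chromosomes, past the limit or not, 5.8% and 5.95% had such a neighbour in the first step and 6.81% and 4.93% in the second. No test was made on these shares. Runs of 3 or more neighbours numbered 3 among the higher and 3 among the lower genes of the first step, and 7 and 4 in the second. Probes of neighbouring genes can share sequence where the genes are copies of each other, which could not be checked without their sequences. The names of some probes end in X, a mark whose meaning is not given in the sources used here.

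The longest run held 6 identifiers on chromosome Arad1C, 61 spots in all and 0 with the mark X, and its genes were lower at 5 h than at 2 h. The log2 differences in order along the chromosome were -1.36, -1.89, -2.52, -1.91, -2.59 and -2.02 on glucose. With protocatechuic acid they were -0.77, -0.75, -1.70, -0.94, -1.14 and -1.75, smaller in size for each of the 6. The last gene of the run was read from 5 spots, with an SD of 1.44 on glucose. The 6 identifiers on either side had differences between -0.45 and 0.53 on glucose and between -0.53 and 0.66 with protocatechuic acid. A run ends by definition where the next identifier is not past the limit. The median level of the run on glucose was 6.01 at 15 min and 8.22 at 30 min, then 8.21 at 2 h and 6.14 at 5 h, and 6.0, 8.25, 8.25 and 7.27 with protocatechuic acid. The run had therefore come back close to its early level at 5 h on glucose and had come back less far with protocatechuic acid. The glucose arrays at 2 h and 5 h chose the run, so this contrast of the media is a description and was not tested.

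**Figure D4:**
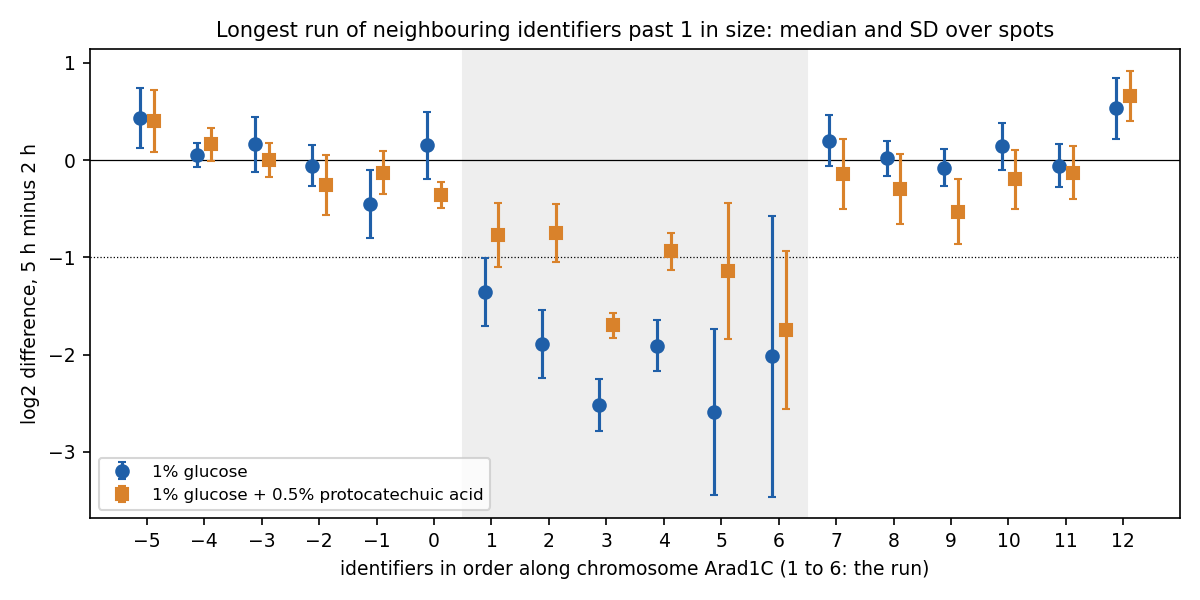
Log2 difference of 5 h minus 2 h (vertical axis) for 18 identifiers in order along chromosome Arad1C (horizontal axis), on 1% glucose (blue circles) and with 0.5% protocatechuic acid (orange squares). Points are medians and bars the SD over the spots of a gene, the grey field marks the run of 6, and the dotted line marks -1. The 6 genes of the run lie between -2.59 and -1.36 on glucose, and their neighbours lie between -0.45 and 0.53.

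Other runs lay near chromosome ends or followed a different course. A run of 3 on Arad1D, 6 places beyond ARAD1D50292g and 15 identifiers from the end, had differences from -3.54 to -1.49 between 2 h and 30 min, and its median level was 5.69, 8.60, 5.18 and 5.25 at the 4 times on glucose. A run of 3 on Arad1A, 8 identifiers from the end, had differences of -2.55 to -1.69 between 2 h and 30 min and of 1.71 to 2.17 between 5 h and 2 h. With protocatechuic acid this run had a median of 9.37 at 30 min, above the 6.91 on glucose. A run of 3 on Arad1C had differences of 1.04 to 2.14 between 5 h and 2 h, with median levels of 11.04, 8.32, 9.46 and 11.60 on glucose and of 10.65, 7.55, 9.33 and 11.16 with protocatechuic acid. A run of 4 on Arad1D was higher at 5 h than at 2 h by 1.65 to 2.78 on glucose and by 0.35 to 2.39 with protocatechuic acid.

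All 4 chromosomes held genes past the limit. The share of higher genes between 2 h and 5 h was 3.79% on Arad1A, 3.76% on Arad1B, 2.82% on Arad1C and 4.04% on Arad1D, and the share of lower genes 2.61%, 3.09%, 2.61% and 2.25%. The mitochondrial genome codes for subunits of the respiratory chain and for RNAs of its own translation. Of the 36 mitochondrial identifiers 30 were tested, and 0 were past the limit in either step, beside 5.99% and 6.07% of all genes, and nothing is read from so short a list. Between 5 h and 30 min 2 of the 30 (6.67%) were lower by at least 1, beside 5.41% of all genes. Between 2 h and 5 h on glucose, 23 of the 30 were lower, with a median of -0.23, where 3205 of the 6025 genes were lower with a median of -0.02. With protocatechuic acid 27 of the 30 were higher, with a median of 0.21. Between 30 min and 2 h their medians were 0.02 on glucose and -0.36 with protocatechuic acid. The spike-in probes moved with them in 3 of these 4 cases, with -0.47 and 0.26 in the later step and -0.24 and -0.34 in the earlier one. Of the mitochondrial identifiers 24 had 1 to 3 spots, with a median of -0.37 between 2 h and 5 h on glucose, and 12 had at least 7 spots, with a median of -0.12. After scaling to the spike-in probes the median of the 30 between 2 h and 5 h on glucose turned to 0.27, beside 0.48 over all genes, so the sign depends on the scaling while the list lay below the median of all genes in both.

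The genes annotated for the breakdown of tannins and aromatic acids were mostly dim on glucose alone on Arad1A and Arad1C. Of the 9 measured on Arad1A and Arad1C, 8 could be tested and 0 were past the limit in either step, beside 5.99% and 6.07% of all genes, and nothing is read from this count. The gallic acid decarboxylase gene *AGDC1*, which the study annotates on Arad1C, is not among the 9. Of the identifiers on Arad1D described further on, 1 was past the limit. On all 3 arrays 2 of the 9 had 50% or more of their spots well above background. The genes of tannase 1 and tannase 2, which cleave the ester bonds of tannins, were dim. ARAD1A06094g, tannase 1, had 4.99 at 30 min, 5.13 at 2 h and 5.18 at 5 h, and 0, 5 and 4 of its 12 spots were well above background. ARAD1A19822g, tannase 2, had 4.55, 4.58 and 4.70, with 2, 1 and 2 of 10 spots well above background. Its spots did not read alike, since the brightest of them had 9.73, 11.40 and 10.51 at the 3 times, against medians near background. Both tannase genes were also dim with protocatechuic acid. At the same times tannase 1 had 5.12, 5.13 and 5.16 there, and tannase 2 had 4.96, 4.71 and 4.72.

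The other genes of this list were mostly dim too. ARAD1A15158g, an oxalocrotonate decarboxylase, had 4.82, 4.82 and 4.95 at 30 min, 2 h and 5 h, and 4.94, 5.48 and 5.33 with protocatechuic acid. ARAD1A17402g, a monooxygenase, had 4.93, 4.73 and 4.64 on glucose, and 4.70, 4.80 and 4.41 with protocatechuic acid. For ARAD1C00330g, a hydroxylase candidate that is also annotated as a 2-oxopent-4-dienoate hydratase, no spot was well above background on any glucose array, and its values were 4.69, 4.88 and 4.72. With protocatechuic acid all 12 spots were well above background at 30 min and at 2 h, with 7.22 and 7.16, and the difference between 5 h and 2 h was -1.47 ± 0.50 (SD, n = 12 spots). A second 2-oxopent-4-dienoate hydratase, ARAD1A09218g, was measured on glucose, with 11 of 11 spots well above background at each of the 3 times.

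The values of ARAD1A09218g on glucose were 6.24, 6.88 and 6.85 at 30 min, 2 h and 5 h, with differences of 0.64 ± 0.35 for 2 h minus 30 min and -0.03 ± 0.14 for 5 h minus 2 h. With protocatechuic acid the gene had 9.04, 9.18 and 8.61 at these times. In the shared fit its difference between 2 h and 30 min was 0.39 (standard error 0.27, adjusted p = 1 from limma). The hydroxylase candidates ARAD1C03498g, ARAD1C08580g and ARAD1C08558g had differences between -0.35 and 0.49 in the steps on glucose, and ARAD1C08580g was read from 3 spots only. The median over all 9 genes, with the untested ARAD1C00330g among them, was 0.03 for 2 h minus 30 min and -0.03 for 5 h minus 2 h. Over all genes tested it was 0.00 and -0.02. Scaled to the spike-in probes the later median was 0.47, beside 0.48 over all genes.

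For 7 identifiers on Arad1D the values are those of the probes that carry them. The probes of ARAD1D18458g, annotated as the catechol-1,2-dioxygenase gene *ACDO1*, are numbered by base along the gene, from 815 at the first to 1677 at the end of the last. That end lies beyond the length of the reading frame described for this gene, so it cannot be told whether these probes measure *ACDO1*. They had 5.20 at 30 min, 5.00 at 2 h and 5.24 at 5 h on glucose, and 5.24, 5.16 and 5.14 with protocatechuic acid. The probes of ARAD1D18502g and ARAD1D27984g end at bases 480 and 494. These ends lie well short of the reading frames that the study's protein lengths imply. For these probes it cannot be told either whether they measure the genes named. The probes of ARAD1D18392g, given as a hydroxylase candidate, were just past the limit in a step on glucose, where the other 15 identifiers were not. Of those 15, ARAD1C00330g and ARAD1D09306g had no spot well above background on the glucose arrays and could not be tested. The probes of ARAD1D18392g had 7.39 at 30 min, 6.37 at 2 h and 6.17 at 5 h. Their difference was -1.02 ± 0.44 (SD, n = 11 spots, from -1.85 to -0.44) for 2 h minus 30 min, and -1.32 ± 0.32 for the same step with protocatechuic acid. The shared difference was -1.17 (standard error 0.16, unadjusted p = 0.00104 and adjusted p = 1 from limma).

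The brightest of these identifiers were those given as a 3-oxoadipate enol-lactone hydrolase, ARAD1D18480g, with 10.87, 10.44 and 10.42 at the 3 times, and as a phenol hydroxylase, ARAD1D18502g, with 9.45, 9.29 and 9.19. Neither moved by more than 0.43 in size in a step on glucose. The second identifier for an enol-lactone hydrolase, ARAD1D09306g, had no spot well above background on the glucose arrays, with 4.92, 4.82 and 4.92. The probes of ARAD1D27984g, given as a hydroxylase candidate, and of ARAD1D18348g, given as a 4-hydroxy-2-oxovalerate aldolase, moved by -0.54 to 0.32.

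**Figure D5:**
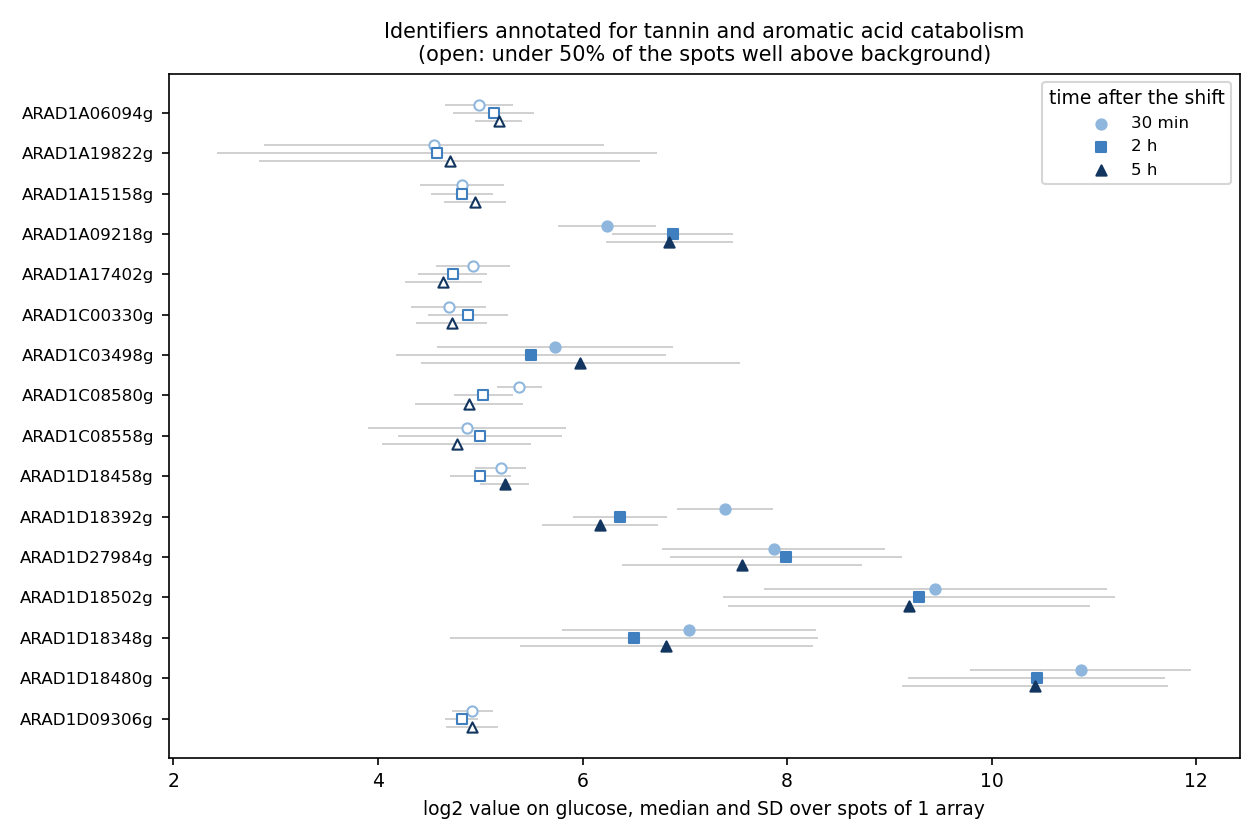
Log2 value on glucose (horizontal axis) of 16 identifiers annotated for the breakdown of tannins and aromatic acids (rows), at 30 min (circles), 2 h (squares) and 5 h (triangles) after the shift. Points are medians and lines the SD over the spots of 1 array, and open points have under 50% of their spots well above background. ARAD1D18392g moves most, with 7.39 at 30 min and 6.37 at 2 h, and 7 of the 9 genes on Arad1A and Arad1C have an open point at 1 or more times.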

How the data were processed

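RNA of 8 samples was hybridised to 8 one-colour Agilent arrays on 1 slide, so time and place on the slide cannot be told apart. The authors extracted the spot intensity with Feature Extraction 11.5.1.1, corrected it for background in limma by normexp, normalized it by quantiles over all spots and deposited log2 values. A recomputation with a normexp offset of 16 differed from the deposited log2 table by at most 5e-09. From the deposited intensity files the flags for spots well above background were taken. The median over the spots of an identifier was used as the gene value (Python 3.11.15, pandas 2.3.3). Of 6160 identifiers, the 6025 for which a glucose array from 30 min to 5 h had a spot well above background were tested. Since each time has 1 array, differences on glucose carry no p. A limma fit (R 4.3.3, limma 3.58.1) over 6 arrays with the medium as a block tested the change shared by the media, with Bonferroni adjustment over the 6025 genes at 0.05, and was tested on simulated data. Whether samples share a pre-culture or a flask is not stated in the sources used here. The p-values rest on how far the time courses of the 2 media differ on these arrays, not on a spread between like cultures. Named were the annotated catabolism genes and, for each step, the gene with the largest rise and fall among those with at least 3 spots and 50% of them well above background on both arrays. The members and lists were chosen with earlier results of these data known. Alternatives changed the offset, normalization, summary over spots, filter, threshold and fit. The number of arrays limits the precision. No probe sequence was used here, and no gene annotation beyond the names that the study gives.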

Additional observations from a re-analysis of the deposited data

Results flagged for a closer look

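Between 2 h and 5 h, 3 genes rose on glucose and fell with protocatechuic acid by at least 1 on the log2 scale in each, and 1 gene did the reverse. They drew attention because the arrays of the 2 media moved in opposite directions. The difference was not tested, since each medium and time has 1 array. The 3 were among 213 genes that rose on glucose, and of all 6025 genes 212 (3.52%) fell by at least 1 with protocatechuic acid. The 1 was among 153 genes that fell on glucose, and of all genes 144 (2.39%) rose by at least 1 with protocatechuic acid. Nothing is read from these counts. The first gene, on Arad1B with 11 spots, had differences of 1.06 on glucose and -1.06 with protocatechuic acid. A second one on Arad1B, with 12 spots, had 1.21 on glucose and -1.18 with protocatechuic acid, and its level at 5 h was 7.95 on glucose and 6.06 with protocatechuic acid. The third, on Arad1C with 11 spots, had 1.02 on glucose and -1.02 with protocatechuic acid, all close to the limit. The gene that moved the other way lies on Arad1A and was read from 2 spots, with -1.43 on glucose and 1.28 with protocatechuic acid.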

How the results depend on the processing

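All values given without replicates rest on 1 array per medium and time, and dim genes limit the counts. No paired analysis was possible because each medium and time has 1 array, so that no replicate numbers can pair the arrays. The medium as a block in limma compares the times within a medium. The averaging of double spots, the removal of spots with the suffix X and the scaling to spike-in spots were chosen after seeing the data. Of the main counts, medians and tests, 88 values under an alternative stayed within the limits set for them and 91 moved. List medians changed sign under some settings, those near 0 under several of them and the larger ones after scaling to spike-in spots, where the median of the catabolism identifiers of Arad1D for 2 h minus 30 min was 0.08, against -0.20. Also, for 2 h minus 30 min the larger of the 2 counts, which differ little, changed with the setting. For the values of named genes these numbers were 460 and 122. For the results that moved, the cause was not tested, except that a threshold of 2 must lower a count.

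For 2 h minus 30 min on glucose, with 178 genes higher and 183 lower, the counts were 97 and 116 with a normexp offset of 50, 324 and 309 with an offset of 0, 573 and 547 from the processed signal scaled to the 75th percentile, 436 and 378 from the brightest spot, 21 and 31 at a threshold of 2, and 386 and 109 after scaling to spike-in spots. For 5 h minus 2 h, with 213 higher and 153 lower, they were 140 and 92 with the offset of 50, 483 and 449 from the processed signal, 373 and 335 from the brightest spot, 63 and 19 at a threshold of 2, and 565 and 57 after spike-in scaling, and 238 genes were lower with the offset of 0. For 5 h minus 30 min, with 325 higher and 326 lower, they were 206 and 209 with the offset of 50, 792 and 776 from the processed signal, 530 and 533 from the brightest spot, 77 and 81 at a threshold of 2, and 1661 and 106 after spike-in scaling. Median scaling gave 402 higher and 266 lower for 5 h minus 30 min, 60.2% higher against 49.9%.

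The genes past the limit in both media numbered 112 higher for 2 h minus 30 min, against 57 with the offset of 50, 336 from the processed signal and 9 at a threshold of 2. The 109 lower genes became 63, 301 and 12 under these settings. Between 5 h and 2 h the 77 higher genes became 45, 155 and 12, and the 71 lower genes 36, 205 and 7. The genes whose step was larger on glucose than with protocatechuic acid, 86 for 2 h minus 30 min, became 45, 377 and 10, and those whose step was smaller, 112, became 63, 406 and 6. In that later step the 220 became 124, 750 and 42, and the 156 became 71, 533 and 4.

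In limma, 1 gene passed for 2 h minus 30 min, against 240 after Benjamini-Hochberg adjustment, 0 with the offset of 50, 5 from the processed signal, 0 with the mean over spots, 3 with all 8 arrays, 14 with trend and robust estimation, 4 without the medium block, and 0 to 10 when 1 array was left out. For 5 h minus 2 h, where 0 passed, the counts were 15 after Benjamini-Hochberg adjustment, 1 with all 8 arrays, 3 with trend and robust estimation, 1 without the block, and 0 to 5 when 1 array was left out. Over the whole course, where 10 passed, they were 624 after Benjamini-Hochberg adjustment, 4 with the offset of 50, 25 from the processed signal, 6 with the mean, 46 with trend and robust estimation, 21 without the block, and 0 to 18 when 1 array was left out. An array left alone at its time was assumed to vary like the others. The list medians for 5 h minus 2 h moved too. That of the mitochondrial identifiers was -0.23, against -0.52 from the processed signal and 0.27 after spike-in scaling, which gave 0.47 for the catabolism genes of Arad1A and Arad1C and 0.48 for those of Arad1D, both -0.03 before.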

Other observations

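Among the 226 tested genes within 30 identifiers of a chromosome end, 12 (5.31%) were lower and 7 (3.10%) higher at 2 h than at 30 min on glucose, beside 3.04% and 2.95% of all genes. Between 5 h and 2 h 7 (3.10%) were lower and 6 (2.65%) higher, beside 2.54% and 3.54% of all genes. No test was made on these shares.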
